A study of Mus musculus with 4 samples.

Results

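TCF1 was mapped by chromatin immunoprecipitation and sequencing in mouse thymocytes, and the regions described here are those called in Sox13hi γδ thymocytes and in double-positive (DP) thymocytes but not in Sox13lo γδ thymocytes. Overlapping peaks of the 3 deposited lists were merged wherever they shared at least 1 bp. A merged region on chromosomes 1 to 19 was kept when it held a Sox13hi peak and a DP peak and no Sox13lo peak. The rule kept 1616 of 122489 autosomal regions, and they are called Sox13hi/DP regions below. These regions were chosen by measured peak calls in all 3 lists, so their number is a description and supports no statement about TCF1 binding.

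The γδ thymocytes carried CD24, a marker of immature cells. They came from C57BL/6 mice with a knockout of TCRbeta and an ECFP knock-in in 1 copy of Sox13. They were sorted by this cyan reporter into cells with high signal (Sox13hi) and cells with low or no signal (Sox13lo). The DP thymocytes were sorted as CD4 CD8 double-positive cells from wild-type C57BL/6 mice, so Sox13 and TCRbeta genotype differ between the γδ and DP cells as well as the cell type, and these cannot be told apart. The labels give no age and no sex, and do not say how many mice were pooled. The same anti-TCF1 antibody was used for all 3 lists, and an input library of γδ thymocytes was not analysed here. Each population was represented by 1 library, so there is no spread between replicates and no test between populations. Bracketed ranges are 95 % intervals (Wilson intervals of shares, binomial order-statistic intervals of medians). They cover counting error over regions or peaks only, and neighbouring regions are not independent.

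TCF1, the product of Tcf7, binds DNA through a high mobility group (HMG) box and acts with coactivators such as β-catenin or with corepressors of the Groucho/TLE family. It is needed when progenitors enter the T lineage and again in DP cells, where it supports survival and the later choice of coreceptor. Sox13 belongs to the SOX family of HMG-box factors and is known for its part in γδ T cells that make IL-17. The deposited lists hold positions and scores and no gene names. Gene positions and genome sequence on mm9, the build of the peaks, were not used here, so nearby genes, promoters and motifs of the Sox13hi/DP regions were not analysed here and no sequence is shown.

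The 3 autosomal lists differed in length and in peak width. The Sox13hi list held 40156 peaks with a median width of 100 bp, the Sox13lo list 10394 peaks with a median width of 350 bp, and the DP list 85669 peaks with a median width of 200 bp. They covered 0.241, 0.171 and 0.790 % of the length of the autosomes. Read depth is unknown, the lists differ in the scale of their scores, and absence from a list does not show absence of binding. Scores are the authors' own values and were turned into percentiles within a list, where 100 is the best-scored peak.

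Sox13hi and DP peaks overlapped less often where the Sox13lo list had no peak than where it had one. Of 33387 Sox13hi peaks without a Sox13lo peak, 1618 lay in a Sox13hi/DP region, which is 4.85 % (4.62 to 5.08). Of the 6769 Sox13hi peaks in a region with a Sox13lo peak, 65.6 % (64.5 to 66.7) lay in a region that also held a DP peak. From the DP side, 2.01 % (1.92 to 2.11) of 80377 DP peaks without a Sox13lo peak lay in a Sox13hi/DP region. Where a DP peak shared its region with a Sox13lo peak, 76.9 % (75.7 to 78.0) of 5292 lay in a region that also held a Sox13hi peak. Peaks in regions with a Sox13lo peak were also wider and better scored, as given below. No rate of overlap by random placement is given here. Sox13hi/DP regions held 4.03 % of all autosomal Sox13hi peaks and 1.89 % of all autosomal DP peaks. The regions were simple in make-up: 1613 of 1616 held 1 peak of each list, 2 held 2 Sox13hi peaks and 1 held 2 DP peaks.

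The Sox13hi/DP regions were mostly narrow. Their median width was 250 bp, with quartiles of 200 and 350 bp and a range from 100 to 1550 bp. The most frequent width was 200 bp, with 334 regions, followed by 250 bp with 326 and 300 bp with 298. The median was 550 bp for regions of all 3 lists. Those of Sox13lo and DP without Sox13hi stood at 400 bp, and those of both γδ lists without DP at 350 bp. The Sox13hi peaks inside Sox13hi/DP regions were 150 bp wide at the median, compared with 100 bp in regions of the Sox13hi list alone and 250 bp in regions of all 3 lists. The DP peaks inside them were 250 bp wide at the median, compared with 200 bp in regions of the DP list alone and 400 bp in regions of all 3 lists. A peak of 100 bp, the narrowest in the lists, was the Sox13hi member in 46.5 % of cases and the DP member in 13.5 %. Wider peaks overlap more easily, so width is in part set by the rule.

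Scores in both lists lay near the middle of the list, unlike the scores of regions shared with Sox13lo. The best Sox13hi peak of a Sox13hi/DP region stood at a median percentile of 47.9 (46.2 to 50.2), with quartiles of 20.4 and 69.9. In regions of the Sox13hi list alone the median was 42.8, in regions of both γδ lists without DP it was 87.4, and in regions of all 3 lists it was 93.1. The best DP peak stood at a median percentile of 42.4 (40.0 to 44.4), with quartiles of 21.2 and 66.7. In regions of the DP list alone this median was 48.3, in regions of Sox13lo and DP without Sox13hi it was 85.4, and in regions of all 3 lists it was 91.8. The Sox13hi/DP regions thus had DP scores slightly below those of regions that the DP list held alone, and Sox13hi scores slightly above those of regions that the Sox13hi list held alone. Leaving out regions with a Sox13lo peak is part of the rule, so these medians describe regions selected in this way. In the best-scored of 10 equal bins, 88.6 % of Sox13hi peaks and 30.7 % of DP peaks had a Sox13lo peak. Regions of a single list also lack a Sox13lo peak, and why the Sox13hi/DP medians differ from theirs was not tested.

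**Figure D1:**
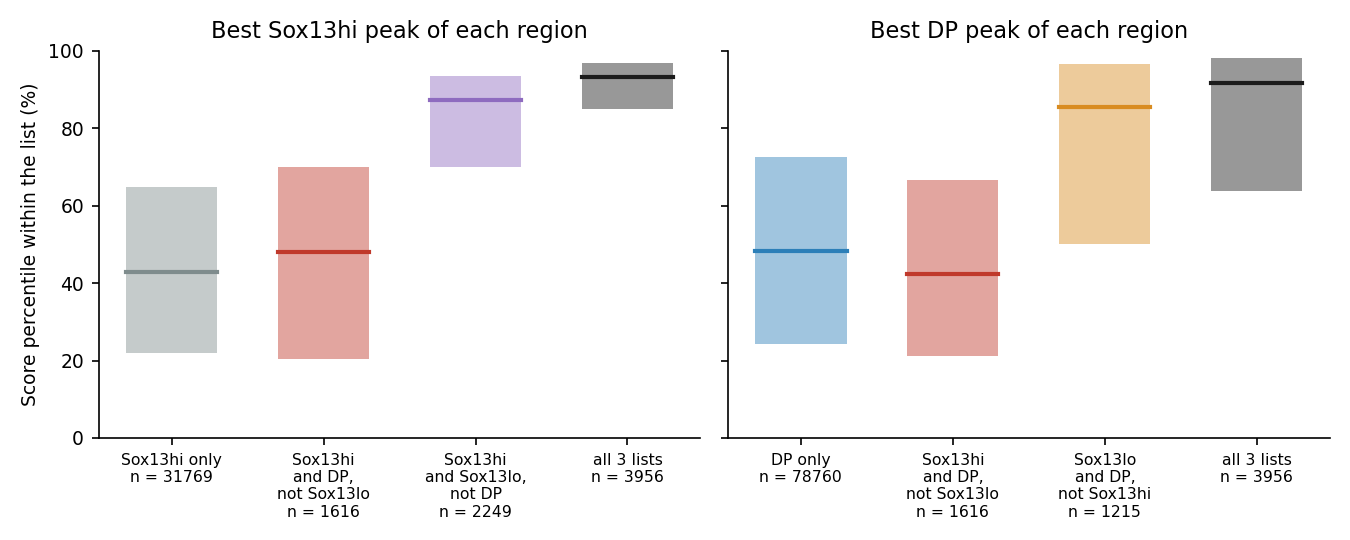
Score percentiles within the Sox13hi list (left) and the DP list (right) for the best peak of each autosomal region, by class of region; boxes span the quartiles and lines mark the median. The Sox13hi/DP regions (medians 47.9 and 42.4) sit beside the regions of a single list and below the regions that hold a Sox13lo peak.

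Few Sox13hi/DP regions were well scored in both populations. Both percentiles were at least 90 in 5 regions, or 0.309 %, against 1469 of the regions of all 3 lists, or 37.1 %. Both were at least 50 in 313 regions (19.4 %), and both were under 50 in 475 (29.4 %). Among regions of all 3 lists both were under 50 in 1.64 %. Taken singly, the Sox13hi percentile was at least 90 in 2.72 % of Sox13hi/DP regions and the DP percentile in 4.39 %. At least 50 was reached in 47.7 % and 42.3 %. The rule leaves out regions with a Sox13lo peak, and with them many of the best-scored peaks. The contrasts with regions of all 3 lists are therefore in part set by the rule. Across the 1616 regions the Sox13hi and DP percentiles had a Spearman rho of 0.04, and across the 3956 regions of all 3 lists rho was 0.23. Points within a class share the same libraries, and regions are not independent replicates.

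Named by the mean of both percentiles, the best Sox13hi/DP region was on chromosome 10 at 68071251 to 68071800 (all positions on mm9). It had a score of 32.5 in Sox13hi cells (percentile 95.5) and 68.8 in DP cells (percentile 94.7), and the nearest Sox13lo peak lay 603.9 kb away. At rank 2 was chromosome 5, 73404801 to 73405200, scored 23.6 in Sox13hi and 82.2 in DP cells, with a Sox13lo peak 6.50 kb away. Both were well scored in both populations, and their distances from a Sox13lo peak differed widely.

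Rank 3 went to chromosome 7, 7251051 to 7251450, scored 22.3 in Sox13hi and 69.8 in DP cells and 20 kb from a Sox13lo peak. Next came chromosome 8 at 45520701 to 45521250 (20.5 and 72.8) and chromosome 7 at 69722851 to 69723350 (30.4 and 55.4). These 5 are the regions with both percentiles at 90 or above. The other named regions at ranks 6 to 10 each fell under percentile 90 in one list. They lay on chromosome 10 at 104590751 to 104591200 (42.5 and 50.8), chromosome 1 at 76862451 to 76862800 (18.7 and 70.1), chromosome 9 at 100543451 to 100543800 (28.5 and 52.1), chromosome 14 at 19070751 to 19071100 (15.3 and 84.2), and chromosome 13 at 57008551 to 57008950 (15.5 and 77.6). Of these 10 regions, 2 lay within 10 kb of a Sox13lo peak. The score of 42.5 on chromosome 10 was the highest Sox13hi score among the Sox13hi/DP regions, at percentile 97.5.

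The regions best scored in a single population, chosen after their values were seen, varied widely in the other. The 5 best by Sox13hi score had DP percentiles of 87.7, 16.8, 51.0, 94.7 and 90.4, and the 5 best by DP score had Sox13hi percentiles of 81.4, 70.3, 57.5, 13.3 and 59.4. The most unequal of the first 5, on chromosome 1 at 48217901 to 48218450, had a Sox13hi score of 38.0 (percentile 96.6) and a DP score of 11.7 (percentile 16.8). The most unequal of the other 5, on chromosome 3 at 47127201 to 47127650, had a DP score of 86.5 (percentile 97.1) and a Sox13hi score of 4.89 (percentile 13.3). The highest DP score, 138.9, was that of the widest region, on chromosome 4 at 113832851 to 113834400. This region of 1550 bp held 2 Sox13hi peaks, the better with a score of 14.0, and lay 244.2 kb from a Sox13lo peak. Without it the widest were 2 regions of 700 bp, on chromosome 1, 89298701 to 89299400 (scores of 11.3 in Sox13hi and 81.5 in DP cells) and on chromosome 5 at 14804801 to 14805500 (12.3 and 66.1). They were followed by 650 bp regions on chromosome 15 at 9598551 to 9599200 (10.4 and 57.4) and on chromosome 16 at 47813751 to 47814400 (16.1 and 39.4). The other regions with more than 1 peak of a list were on chromosome 2 at 24124701 to 24125250, with 2 Sox13hi peaks, and on chromosome 14 at 107210351 to 107210850, with 2 DP peaks.

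Within the Sox13hi/DP regions the peaks of both lists often had few bases in common. Starts and ends of all peaks fall on a grid of 50 bp, so 50 bp is the smallest possible overlap. Of 1619 overlapping pairs of a Sox13hi and a DP peak in these regions, 412 shared 50 bp, which is 25.4 % (23.4 to 27.6), and 746, or 46.1 %, shared 100 bp. Sox13hi and DP peaks in regions of all 3 lists shared 50 bp in 4.30 % (3.73 to 4.96) of 4137 pairs. Pairs of a Sox13lo and a Sox13hi peak in regions without DP shared 50 bp in 0.558 % (0.327 to 0.953) of 2328, and pairs of a Sox13lo and a DP peak in regions without Sox13hi in 2.36 % (1.65 to 3.37) of 1229. The peaks of these other pairs were wider, which leaves more bases to share.

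To allow for width, the distance between both midpoints was divided by the mean of both widths, so that 0 means centred and values near 1 mean touching edges. The median was 0.333 in Sox13hi/DP regions and 0.167 for the same 2 lists in regions of all 3. This relative offset was over 0.5 in 26.6 % (24.5 to 28.8) of pairs in Sox13hi/DP regions, in 10.7 % (9.83 to 11.7) in regions of all 3 lists, in 2.79 % of pairs of the γδ lists and in 6.43 % of pairs of Sox13lo and DP. The narrower peak lay wholly inside the wider in 58.3 % of pairs in Sox13hi/DP regions and in 73.9 % in regions of all 3 lists.

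Pairs of equal widths were compared for 5 combinations of widths, picked after the data were seen and not by a rule on frequency. Each had at least 25 pairs in both kinds of region. In all 5 the share of pairs with midpoints as close as the grid allows was lower in Sox13hi/DP regions, and in 2 of 5 the intervals did not overlap. For a Sox13hi peak of 150 bp on a DP peak of 300 bp, the 79 pairs in Sox13hi/DP regions had midpoints 25, 75, 125 and 175 bp apart in 34.2, 31.6, 16.5 and 17.7 % of cases. The 75 pairs of these widths in regions of all 3 lists did so in 68.0, 14.7, 10.7 and 6.67 %. The share at 25 bp was 24.7 to 45.2 % in the first and 56.8 to 77.5 % in the second, which do not overlap. Of the 5, a Sox13hi peak of 100 bp on a DP peak of 200 bp had the most pairs in Sox13hi/DP regions. There, 27.6 % (20.7 to 35.7) of 134 were exactly centred. In regions of all 3 lists 40.0 % (25.6 to 56.4) of 35 were, and these intervals overlap.

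Near misses of the rule were counted among the 31769 Sox13hi-only peaks by their gap to a DP-only peak. There were 259 that touched a DP-only peak without sharing a base and 165 at a gap of 50 bp. At gaps of 500 to 1000 bp there were 90 to 123 per 50 bp step, with a median of 100. Gaps of 100 to 450 bp held 84 to 135 per step. The count thus stood above that level within 50 bp of a DP-only peak, and the 412 Sox13hi/DP pairs with 50 bp in common stand just inside the rule beside the 259 just outside it.

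**Figure D2:**
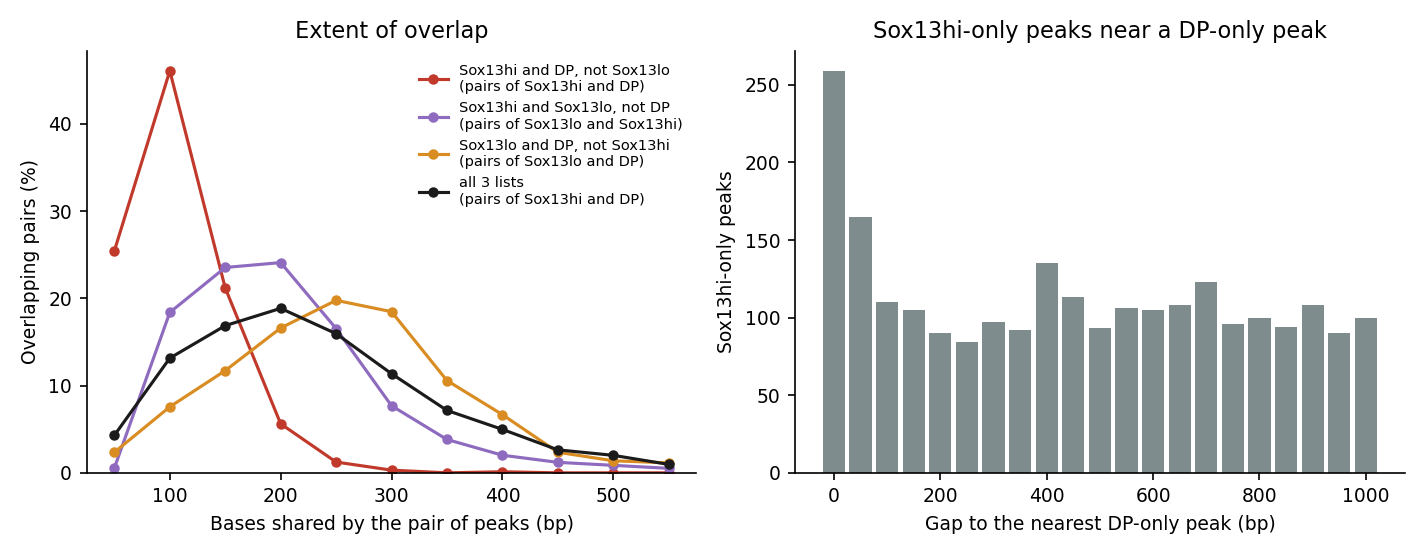
Left, share of overlapping peak pairs (%) by the number of bases they have in common (bp), for 4 kinds of region; right, number of Sox13hi-only peaks by gap to the nearest DP-only peak (bp, steps of 50). Pairs in Sox13hi/DP regions (red) have 46.1 % at 100 bp and 25.4 % at 50 bp, and the gap counts fall from 259 at 0 bp to about 100.

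The share of Sox13hi peaks that also held a DP peak did not rise steadily with the Sox13hi score where no Sox13lo peak was there. The autosomal list was split by score into 10 bins of equal size. The share was 5.31 % (4.65 to 6.05) in the lowest bin, fell to 3.44 % (2.91 to 4.06) in bin 4 and reached 6.42 % (5.55 to 7.41) in bin 9. In the best-scored bin it was 10.3 % (7.81 to 13.4), over 458 peaks, since 88.6 % of that bin had a Sox13lo peak. Sox13hi peaks that did have a Sox13lo peak held a DP peak in 57.1 % of cases in the lowest bin and 73.2 % in the highest. From the DP side the share fell with score. It was 2.16 % (1.87 to 2.50) in the lowest bin of DP peaks, 2.47 % (2.16 to 2.82) in bin 3 and 1.14 % (0.904 to 1.45) in the highest.

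Among peaks without a Sox13lo peak, the share at a fixed peak width fell with score in both lists. Sox13hi peaks of 100 bp without a Sox13lo peak held a DP peak in 5.31 % (4.80 to 5.88) of cases among the lowest-scored of 3 equal bins of that width and in 2.24 % (1.91 to 2.62) among the highest. For Sox13hi peaks of 150 bp the shares were 7.62 % (6.74 to 8.59) and 3.51 % (2.93 to 4.21). DP peaks of 250 bp held a Sox13hi peak in 3.74 % (3.23 to 4.33) and 0.847 % (0.621 to 1.16), and DP peaks of 200 bp in 3.17 % and 0.687 %. Among peaks without a Sox13lo peak, those in Sox13hi/DP regions were thus more often low-scored for their width. Leaving out peaks with a Sox13lo peak is part of the rule and removed more of the high-scored Sox13hi peaks. Of all Sox13hi peaks of 150 bp, 18.8 % of the highest score bin and 6.47 % of the lowest had a Sox13lo peak. How far the rule itself sets the fall among Sox13hi peaks was not tested.

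Sharing with the Sox13lo list ran the other way for Sox13hi peaks of the same widths. Of all Sox13hi peaks of 100 bp, 2.59 % (2.24 to 2.99) of the lowest of 3 score bins and 6.45 % (5.90 to 7.05) of the highest had a Sox13lo peak. Of those of 150 bp, 6.47 % and 18.8 % did. Among DP peaks of 200 bp the share with a Sox13lo peak fell from 3.14 % to 1.94 %, less steeply than the share with a Sox13hi peak. Among Sox13hi peaks without a Sox13lo peak, the share with a DP peak also rose with width. It was 3.77 % (3.51 to 4.04) of those of 100 bp and 10.8 % (8.53 to 13.5) of those of 250 bp. Score was not held fixed here, and wider peaks overlap more easily.

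**Figure D3:**
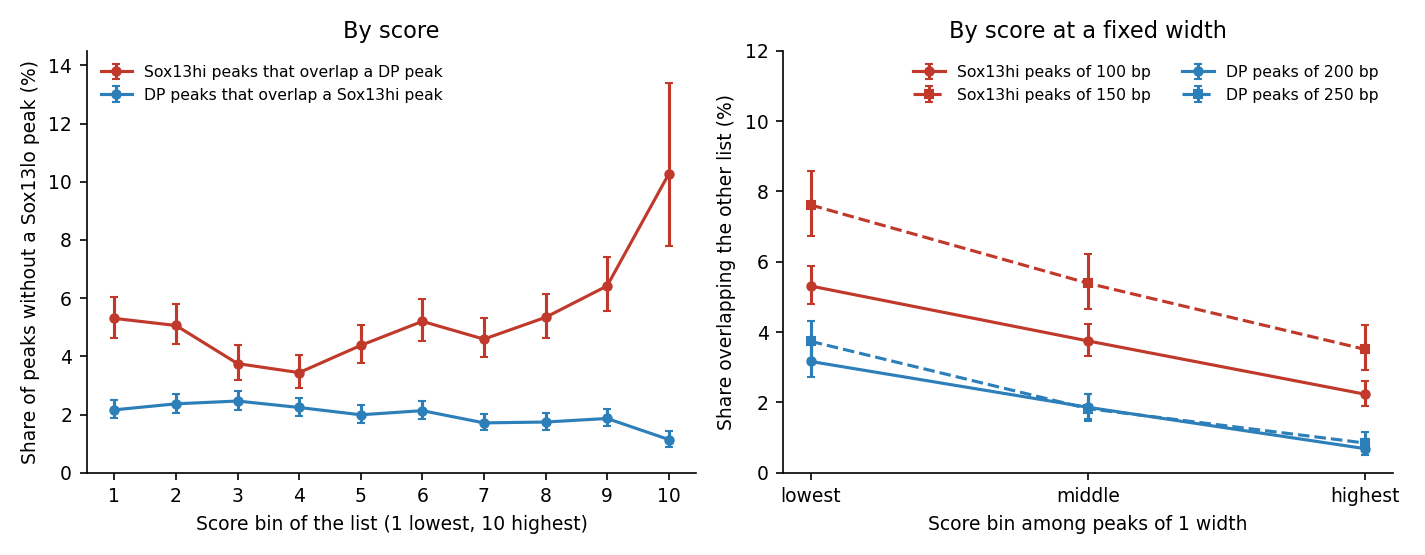
Share of peaks without a Sox13lo peak (%) that overlap a peak of the other list, in 10 score bins of the list (left) and in 3 score bins among peaks of 1 width (right); bars are 95 % Wilson intervals. The Sox13hi share stays between 3.44 and 6.42 % in the 9 lower bins, and at each fixed width the share falls from the lowest to the highest bin.

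Sox13hi/DP regions lay about as far from Sox13lo peaks as regions of the Sox13hi list alone. The median distance from the edge of a region to the nearest Sox13lo peak was 161.4 kb (145.7 to 176.8), with quartiles of 51.3 and 455.0 kb. It was 173.8 kb (170.3 to 177.8) for regions of the Sox13hi list alone and 127.7 kb (126.0 to 129.6) for regions of the DP list alone. A Sox13lo peak lay within 10 kb of 123 Sox13hi/DP regions, or 7.61 % (6.42 to 9.01), beside 7.21 % of all 112145 autosomal regions without a Sox13lo peak. The share was 6.09 % for Sox13hi alone and 7.65 % for DP alone. At 10 kb the Sox13hi/DP regions were therefore near the background.

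At shorter range the Sox13hi/DP regions had somewhat more Sox13lo neighbours. Within 1 kb there were 22 regions, or 1.36 % (0.901 to 2.05), beside 0.829 % of all regions without a Sox13lo peak. The corresponding shares were 0.708 % (0.622 to 0.807) for Sox13hi alone and 0.867 % (0.805 to 0.934) for DP alone. The intervals did not overlap for Sox13hi alone, and did for DP alone. Wider regions reach closer to their neighbours, and the part of width in this was not tested. The Sox13lo peaks next to these 22 regions stood at a median percentile of 62.1 of their list, from 16.0 to 98.7.

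**Figure D4:**
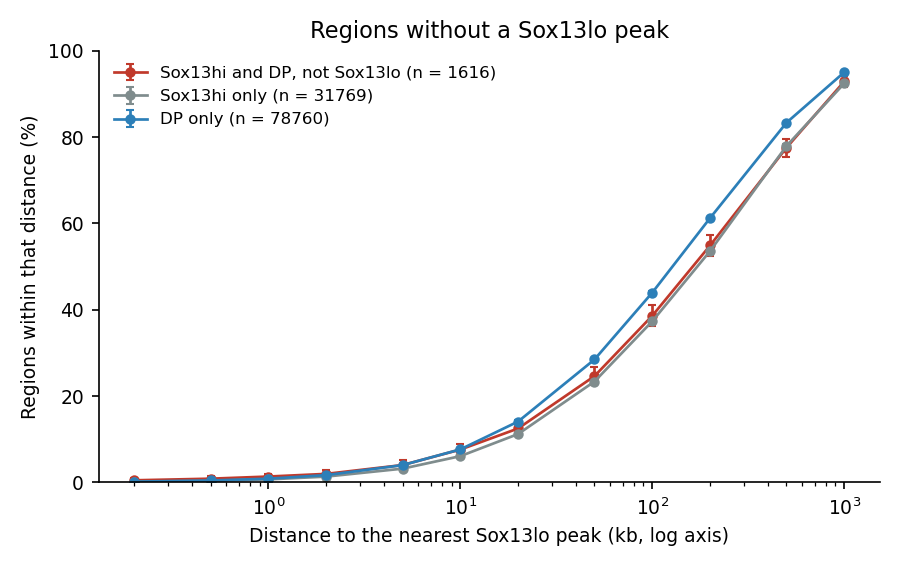
Cumulative share of regions (%) by distance from the region's edge to the nearest Sox13lo peak (kb, log axis), for the 3 classes of region without a Sox13lo peak; bars are 95 % Wilson intervals. The curve of the Sox13hi/DP regions follows that of Sox13hi alone, with medians of 161.4 and 173.8 kb, and lies below that of DP alone from 50 kb on.

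The regions closest to a Sox13lo peak show where the rule draws its line. There were 3 that touched a Sox13lo peak without sharing a base. They were on chromosome 14 at 19070751 to 19071100 (scores of 15.3 in Sox13hi and 84.2 in DP cells, with 40.0 for the touching Sox13lo peak), chromosome 14 at 119336701 to 119337100 (27.9, 38.7 and 68.5) and chromosome 5 at 124895201 to 124895600 (19.2, 54.8 and 48.6). All 3 were above percentile 70 in both the Sox13hi and the DP list. The next were at 150 bp, on chromosome 10 at 36856901 to 36857200, chromosome 4 at 11118601 to 11118850, chromosome 5 at 107124801 to 107125300 and chromosome 6 at 108778401 to 108778650. They were followed by chromosome 14 at 103381601 to 103381900 at 200 bp, chromosome 9 at 94438601 to 94438900 at 250 bp and chromosome 1 at 153192351 to 153192700 at 300 bp. The 8 regions within 200 bp of a Sox13lo peak had median percentiles of 79.0 in the Sox13hi list and 76.6 in the DP list. Separately, 23 regions of all 3 lists had a Sox13lo peak that shared 100 bp or less with each other peak. Their median percentiles were 41.4, 24.7 and 31.9 in the Sox13hi, DP and Sox13lo lists. A peak of 100 bp wholly inside a Sox13lo peak also shares 100 bp, so these 23 need not lie at the edge of the rule. This choice favours narrow peaks, so their percentiles are not comparable with those of the 8 regions above.

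The regions farthest from a Sox13lo peak fell in a few long stretches without Sox13lo calls. The farthest pair was on chromosome 15 at 19839601 to 19839850 and at 19829951 to 19830300, 4.08 and 4.07 Mb from a Sox13lo peak and within 10 kb of each other. Their Sox13hi scores were 5.02 and 20.1, and their DP scores 22.5 and 26.7. Another on chromosome 15, at 22098301 to 22098750, lay 3.20 Mb away. Chromosome 14 held 4 of the 10 farthest, between 82536751 and 85187250, at distances of 2.37 to 3.72 Mb. The rest were on chromosome 3 at 73145501 to 73145700 (2.62 Mb) and 73573401 to 73573750 (2.19 Mb), and on chromosome 18 at 28041501 to 28041650 (2.12 Mb). Their DP scores ran from 7.68 to 64.0, from the lower to the upper end of the DP list.

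The surroundings of Sox13hi/DP regions resembled those of regions from a single list. Within 100 kb on either side, their own peaks left out, they had a median of 3 Sox13hi, 0 Sox13lo and 7 DP peaks, the same medians as regions of Sox13hi alone and of DP alone. No Sox13lo peak lay in this window in 61.4 % of Sox13hi/DP regions, 62.7 % of regions of Sox13hi alone and 56.1 % of regions of DP alone. A region of all 3 lists lay within 10 kb of 3.53 % (2.73 to 4.54) of Sox13hi/DP regions, against 2.54 % (2.37 to 2.72) for Sox13hi alone and 3.25 % (3.13 to 3.38) for DP alone.

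Few Sox13hi/DP regions had another nearby. Of the 1616 regions, 38, or 2.35 % (1.72 to 3.21), had another within 10 kb, and these formed 19 pairs and no larger group. The share with a Sox13hi/DP region nearby was 1.55 % (1.42 to 1.70) of regions of Sox13hi alone and 1.26 % (1.19 to 1.34) of regions of DP alone. Both regions of a pair are counted among the 38, so the interval around 2.35 % is too narrow. The single-list shares are counted in 1 direction only. Whether the shares differ was therefore not settled. The tightest pairs, chosen after their values were seen, spanned 650 bp on chromosome 9 at 100543451 to 100544100, which includes the region at rank 8 by score, and 900 bp on chromosome 15 at 15138501 to 15139400. On chromosome 17, pairs of 1200 bp lay at 60867601 to 60868800 and at 77080401 to 77081600.

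Over the autosomes the Sox13hi/DP regions were spread fairly evenly. Their density relative to the autosomes as a whole ran from 0.804 ± 0.100 (counting SD of 64 regions) on chromosome 11 to 1.21 ± 0.119 (103 regions) on chromosome 10. Chromosome 3 stood at 1.20 ± 0.107 and chromosome 14 at 1.19 ± 0.120. Regions of all 3 lists were densest on chromosome 11, at 1.50, and sparsest on chromosome 14, at 0.614, and stood at 0.904 on chromosome 10. Across the 19 autosomes, which share the same libraries and differ in length and base composition, the density of Sox13hi/DP regions had r of 0.58 and rho of 0.56 with that of Sox13hi alone. The values were -0.06 and -0.19 with DP alone, and -0.49 and -0.46 with regions of all 3 lists. With 38 to 139 Sox13hi/DP regions per autosome, counting error is a large part of this spread.

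**Figure D5:**
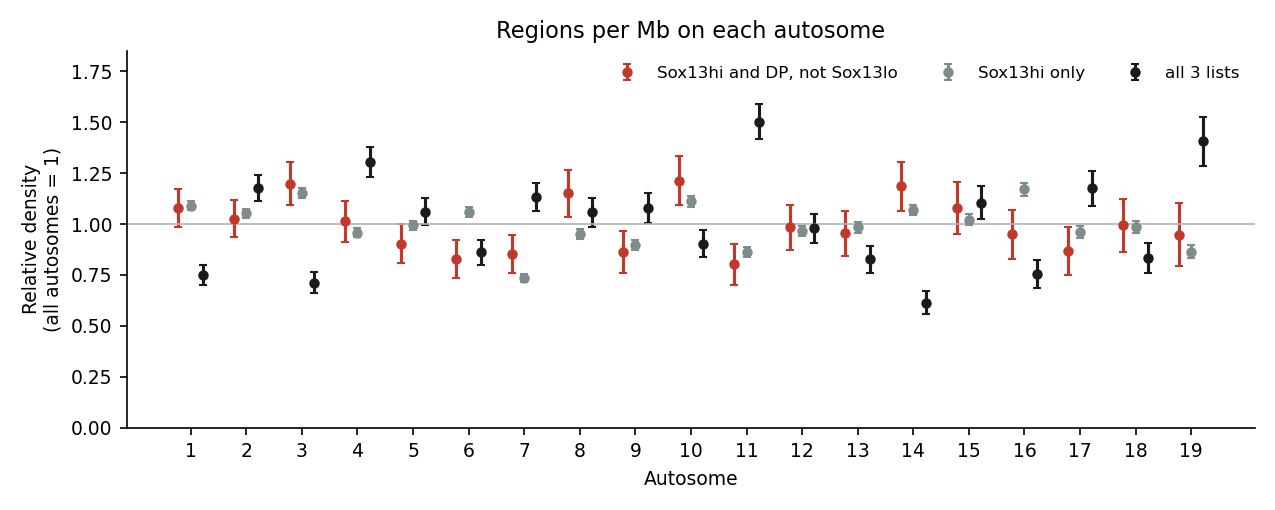
Regions per Mb on each autosome relative to all autosomes (1 is the mean density), for Sox13hi/DP regions, regions of Sox13hi alone and regions of all 3 lists; bars are the counting SD. Sox13hi/DP regions run from 0.804 on chromosome 11 to 1.21 on chromosome 10, and regions of all 3 lists are highest on chromosome 11 at 1.50.

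Limiting each list to its best-scored 10871 peaks, the length of the whole Sox13lo list, left 22 Sox13hi/DP regions. This setting keeps Sox13hi scores from 11.5 and DP scores from 51.4 and leaves the Sox13lo list whole. All 22 were among the 1616. They lay on 14 autosomes, with a median width of 400 bp, and 5 were within 10 kb of a Sox13lo peak. Their Sox13hi scores had a median of 15.6 and a range of 11.6 to 32.5, and their DP scores a median of 64.1 and a range of 51.4 to 138.9. The median distance of these 22 from a Sox13lo peak was 49.8 kb. Distances of the other regions in this setting were not measured, so the count within 10 kb and this median stand without a background.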

How the data were processed

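The authors deposited 1 peak list per TCF1 library, as 6 columns without a header, with a score per peak that is the authors' own value. Per the submitters' processing notes the build is mm9. No aligner, peak caller or threshold is given in the sources used here, nor whether the input served in peak calling. Per the labels' protocols, equal numbers of cells were fixed with 1 % formaldehyde, and fragments of 300 to 500 bp were amplified for 17 cycles. Depth is unknown, and no count of molecules underlies the scores.

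The deposited ends are inclusive and 0-based, and 1-based inclusive positions are printed. Peaks were merged in Python 3.11.15 (numpy 2.4.6, pandas 2.3.3, scipy 1.17.1), and the classes were checked with bedtools 2.31.1 and on simulated lists with known classes. Percentiles are ranks within a whole list. Score bins were cut on autosomal peaks. Chromosome lengths came from GenomeInfoDb 1.38.1 and plots from matplotlib 3.10.9.

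Named regions are the 10 best by mean percentile, the 10 farthest from and the 10 closest to a Sox13lo peak, the 5 widest, and those with more than 1 peak of a list. The part of that rule on genes, and the fixed gene lists, were not used, because the gene table is on GRCm38 and positions were not converted. The regions, the lists and the rules were chosen with earlier results of these data known, and the work on peak alignment, fixed widths and surroundings was added after the data were seen. Alternatives covered the overlap criterion, peak width, score threshold, list length, margin, chromosomes and distance.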

Additional observations from a re-analysis of the deposited data

How the results depend on the processing

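The number of Sox13hi/DP regions, 1616, became 1054 with a reciprocal overlap of 50 %, 2503 with peaks resized to 500 bp, 760 with the better-scored 50 % of each list and 22 with lists of equal length. Midpoints within 200 bp (2029), a margin of 1 kb around Sox13lo peaks (1594) and all chromosomes (1671) left it within 1.5 times. The reciprocal setting shared 789 of the 1616 regions, and the median distance to the nearest Sox13lo peak was 77.3 kb. This setting can keep a region that overlaps a Sox13lo peak when under 50 % of the wider peak is shared. That includes a narrow peak wholly inside a wide Sox13lo peak. The cause of the lower distance was not tested. With the better-scored 50 % of each list, 312 of the 1616 were found again, since lower-scored Sox13hi and DP peaks were dropped, and the Sox13lo list was shortened as well. The better-scored 50 % of the Sox13lo list gave a median distance of 338.0 kb, as fewer peaks must. The median width was 150 bp for the Sox13hi peak alone. The share near a Sox13lo peak was 1.98 % within 2 kb and 24.6 % within 50 kb, by construction of the distance. In settings added after the data were seen, the median Sox13hi percentile was 65.6 by reciprocal overlap and 44.5 with resized peaks, and the median DP percentile was 35.2 by reciprocal overlap and 39.5 by midpoints, and the cause was not tested. Of 24 alternative values, 11 stayed within the counting interval or 1.5 times and 13 moved. Promoter, motif and gene alternatives were not run, because no mm9 sequence or gene positions were used here. No paired analysis was possible because there was a single library per population. Depth is unknown, so how far it limits the Sox13lo list could not be set.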

Other observations

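The X chromosome, left out above, held 55 further regions of Sox13hi and DP without Sox13lo, and the Y chromosome held none. For comparison, X held 1142 regions of the Sox13hi list alone, 5024 of the DP list alone and 99 of all 3 lists.

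The 3 Sox13hi/DP regions with the lowest mean percentile, chosen after the data were seen, differed in their distance from a Sox13lo peak. The lowest, on chromosome 18 at 75773201 to 75773300, had a Sox13hi score of 4.19 and a DP score of 3.34, 206.2 kb from a Sox13lo peak. The next, on chromosome 7 at 138078501 to 138078650, scored 4.11 in Sox13hi and 4.34 in DP cells and lay 0.850 kb from a Sox13lo peak at percentile 98.7 of its list. The last, on chromosome 8 at 53127751 to 53127850, scored 4.19 and 3.84 and lay 1126 kb away.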
